A study of Mus musculus with 4 samples.

Results

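The genes of the integrin and laminin chains were followed in mammary glands of mice with and without knockout of miR-9. Members were the protein-coding genes named Itga followed by a digit or letter code, Itgb followed by 1 digit, or Lama, Lamb or Lamc followed by 1 digit. There were 37 of them among 25806 listed genes: 18 integrin alpha chains, 8 integrin beta chains and 11 laminin chains. Total RNA was made into libraries with the Illumina TruSeq RNA kit, and the tissue was whole gland from female mice at the hyperplastic stage. All animals carried the MMTV-PyMT transgene, in which the mouse mammary tumour virus promoter drives the polyomavirus middle T oncogene in mammary epithelium, on a mixed C57BL/6 background. The control group was 2 libraries of littermates without miR-9 knockout, and the knockout group was 2 libraries with knockout of miR-9 exon 1, bred from heterozygous founders. Levels of mature miR-9 were not analysed here. Whether the knockouts were homozygous, which miR-9 gene was deleted, the age of the mice and whether a library was 1 animal were not given in the labels. P-values therefore measure only how these 4 libraries spread, and that spread may be technical.

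Integrins are cell-surface receptors made of 1 alpha and 1 beta chain, which tie the matrix or another cell to the cytoskeleton. Laminins are cross-shaped proteins of 1 alpha, 1 beta and 1 gamma chain and form, with type IV collagen and nidogen, the basement membrane on which mammary epithelium rests. In the gland, basal and myoepithelial cells make contact with that membrane through laminin-binding integrins, and leukocytes carry integrins of their own for adhesion and migration.

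The comparison asked which of these messages differ when miR-9 is deleted, so the seed of miR-9 is shown first. Its mature 5p sequence is the same from all of Mir9-1, Mir9-2 and Mir9-3 in RefSeq (GRCm38.p6), with bases 2 to 8 in capitals:
miR-9-5p: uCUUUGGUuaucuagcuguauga
The complement of these bases followed by A, ACCAAAGA, is an 8-base site. In the longest annotated 3' UTR of each gene (GENCODE M21, GRCm38), 3 of 37 members held it, 8.11% beside 4.46% of 15857 tested protein-coding genes. Median 3' UTR lengths were 1112 and 1096 bases. The 3 were the collagen receptor genes Itga1 and Itga2 and the leukocyte gene Itga4, whose 3' UTRs of 6994, 3404 and 6508 bases were all longer than either median. Their sites, with the match in capitals, are the stretches of these transcripts that could pair with the seed:
Itga1 (chr13:114954815-114954844, minus strand): ttttttactgcACCAAAGAtgtgcaaggct
Itga1 (chr13:114954509-114954538, minus strand): tatagtttgtgACCAAAGActcagaaatcc
Itga2 (chr13:114836299-114836328, minus strand): ggggtagaaagACCAAAGAcatcatataga
Itga4 (chr2:79327381-79327410, plus strand): ctaaaccaccaACCAAAGAaaacacacgga
Another 4 members, Itga5, Itga11, Itgae and Itgb8, held only the 7-base sites ACCAAAG or CCAAAGA, and 30 held none of the sites. An 8-base or 7-base site was held by 7 of 37 members, 18.9% beside 21.9% of the 15857 tested protein-coding genes. The log2 fold changes of Itga1, Itga2 and Itga4 were 0.52, -0.69 and 0.87, so the genes with the 8-base site did not share a sign. The medians were 0.86 for the 4 genes with only a 7-base site and 0.29 for the 30 genes without a site. A match describes the letters of a transcript and does not show that it is bound.

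Each library summed to between 15904798 and 16418668 normalised read counts, and the members took 0.246% to 0.290% of each sum. Values are given for replicate 1 and then replicate 2 of each group. Across genes, control 2 was the library least like the knockouts, at r = 0.959 with knockout 1 and 0.964 with knockout 2, and it correlated with control 1 at 0.973. It was the lowest of the 4 libraries in 21 of 37 members (56.8%) and in 31.9% of all genes tested. Epithelial markers were present as the tissue label says: 12 luminal genes, including Krt8, Krt18 and Epcam, summed to between 98603 and 108477 in every library. Among them 1 gene, Krt19, rose in limma, or 8.33% beside 0.414% of all genes. Both knockouts lay below both controls in 8 of the 12, or 66.7% beside 25.6% of all genes. They lay above both in 3, or 25% beside 25.5%.

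Of the 37 members, all of which passed the filter on low values, 1 passed limma's adjusted p of 0.05, the laminin gene Lama3, which was higher in the knockouts. That is 2.70% of members beside 0.583% of 22455 genes in either direction and 0.414% higher. None was called lower, beside 0.169% of all genes. At an unadjusted limma p under 0.05 there were 20 members, or 54.1% beside 18.0% of all genes. Of these, 15 were higher, beside 10.3% of all genes higher, and 5 were lower, beside 7.66%. In 18 members both knockout libraries lay above both controls, 48.6% beside 25.5% of all genes, and in 8 they lay below both, 21.6% beside 25.6%. Together 26 members did not overlap, 70.3% beside 51.2%. The median log2 fold change of the members was 0.40, against 0.00425 for all genes tested. It was 0.60 over the laminins and 0.29 over the integrins. Without control 2 the median of the members was 0.21 and without control 1 it was 0.52.

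**Figure D1:**
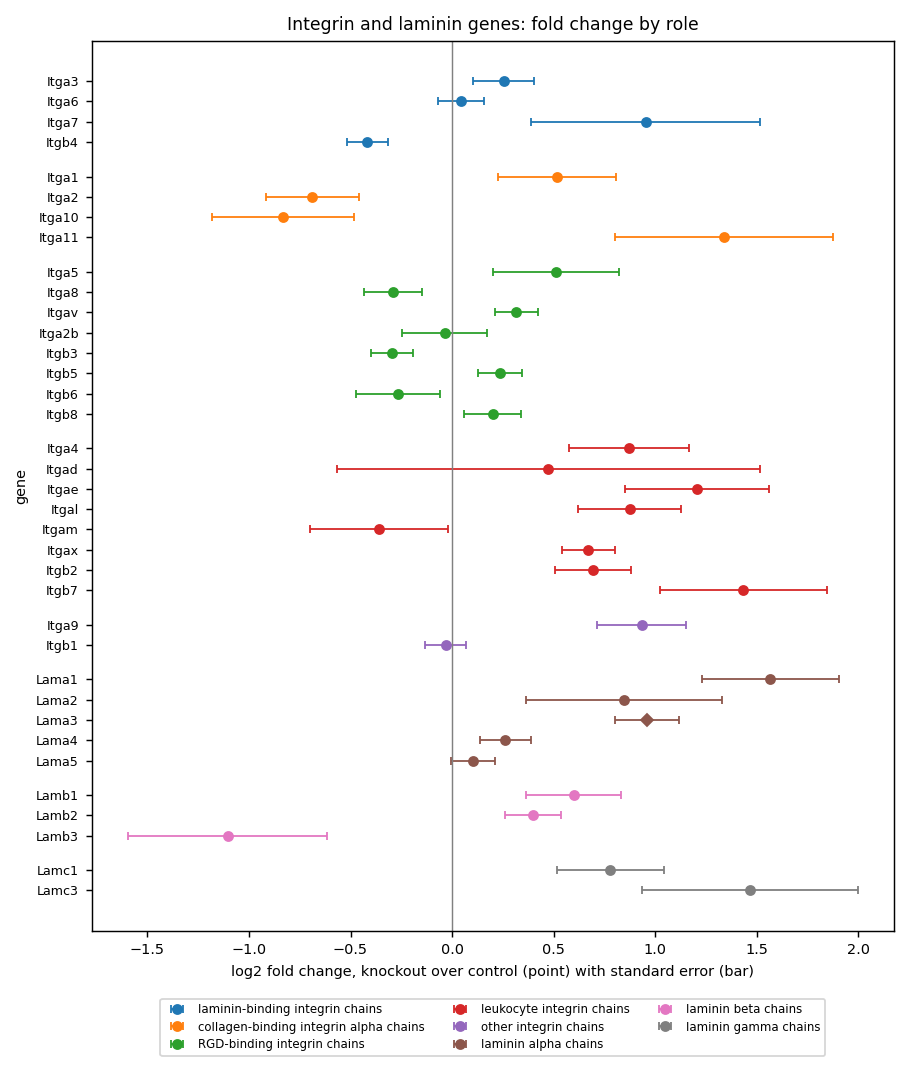
Log2 fold change of knockout over control for 36 genes, grouped by role, with points for the limma estimate and bars for its standard error (2 libraries per group). The diamond marks Lama3, the gene past the adjusted threshold at 0.96, and the points run from -1.10 for Lamb3 to 1.57 for Lama1.

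Among the laminin alpha chains, which carry the domains that integrins bind, Lama3 and Lama1 differed most from their controls. Lama3 (ENSMUSG00000024421, GRCm38 chromosome 18, 12333819 to 12583013) encodes the alpha chain of the laminin that epithelial cells lay down at hemidesmosomes. Its normalised read count was 284 and 258 in controls 1 and 2 and 545 and 509 in knockouts 1 and 2. The groups were well apart, with means of 271 ± 18.0 and 527 ± 25.6 (SD, n = 2 each), and Lama3 rose 1.95-fold, for a log2 fold change of 0.96 with SE 0.16 (limma adjusted p = 0.0487). Its size hardly moved when a library was left out, between 0.89 and 1.03. With all libraries kept, the limma call ended with a pseudocount of 0.1 (adjusted p = 0.0810) or a minimum mean of 10 (0.0619). It also ended with voom weights (0.110) or with no trend and robust settings (0.221), and held under the other alternatives that kept all libraries. Reads of its long and short transcripts, which start from separate promoters, were counted together. In bulk libraries like these, a change in the number of cells of a type and a change in RNA per cell cannot be told apart.

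Lama1, the alpha chain of the first laminin of the embryo, stood at 280.5 and 142 in the controls against 506 and 698 in the knockouts. Both knockouts lay above both controls, with a log2 fold change of 1.57 with SE 0.34 (limma adjusted p = 0.0972), the highest among the members. Lama2, the chain of muscle and peripheral nerve, had 196 and 88.7 in controls and 340.2 and 167 in knockouts, so its groups overlapped, at a log2 fold change of 0.85 (limma adjusted p = 0.403), which was 0.28 without control 2, 0.34 without knockout 1 and 1.42 without control 1. Summed Schwann cell markers were 10929 and 10712 in controls and 9735 and 10891 in knockouts, of which Sox10 was 78.3% to 82.1%. The other 6 summed to 1952 and 1990 in controls and 2007 and 2363 in knockouts, and over all 7 the median log2 fold change was 0.68. Both knockouts lay above both controls in 4 of the 7, or 57.1% beside 25.5% of all genes. They lay below in 1, or 14.3% beside 25.6%. Markers of skeletal muscle summed to 329 and 73.7 against 101 and 89.4. Their part in the Lama2 and Itga7 values was not tested. Lama4, the chain of blood vessels and fat, had 826 and 903 against 1119 and 959.6, with a log2 fold change of 0.26 (limma adjusted p = 0.317). Summed adipocyte markers were 12850 and 5792 in controls and 27961 and 8748 in knockouts, and their part in the Lama4 value was not tested. Lama5, the main alpha chain of mature epithelial and vascular basement membranes, had the highest level of the alpha chains, 2839.8 and 2991 in controls and 3338 and 2935 in knockouts. Its log2 fold change was 0.10 (limma adjusted p = 0.650).

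Lamb3 differed in sign from Lama3. Lamb3 (chromosome 1, 193207699 to 193343878), the beta chain that assembles with Lama3 in the same laminin, had 1259.6 and 2558 in controls and 1093 and 636 in knockouts. Both knockouts lay below both controls, yet the spread within each group was wide, and the log2 fold change of -1.10 (SE 0.49) had a limma adjusted p of 0.356. It was -0.59 without control 2 and -1.62 without control 1.

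Of the other beta and gamma chains, the 4 given next lay higher in the knockouts. Lamb1 had 1325 and 799 in controls and 1635 and 1489 in knockouts, for a log2 fold change of 0.60 (limma adjusted p = 0.259). Lamb2, which replaces Lamb1 in trimers of the synapse and the kidney filter, had 2508 and 1926 against 3005 and 2787, at 0.40 (limma adjusted p = 0.198). Lamc1, the gamma chain of nearly every other laminin, had 1988 and 1146 against 2502 and 2683, at 0.78 (SE 0.26, limma adjusted p = 0.230). Lamc3 had 174 and 55.8 against 311 and 242, at 1.47 (SE 0.53, limma adjusted p = 0.240). In all 4 genes control 2 was the lowest library and control 1 lay between it and the knockouts. Without control 1 their log2 fold changes ran from 0.59 for Lamb2 to 2.28 for Lamc3. Without control 2 they ran from 0.21 for Lamb2 to 0.66 for Lamc3.

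**Figure D2:**
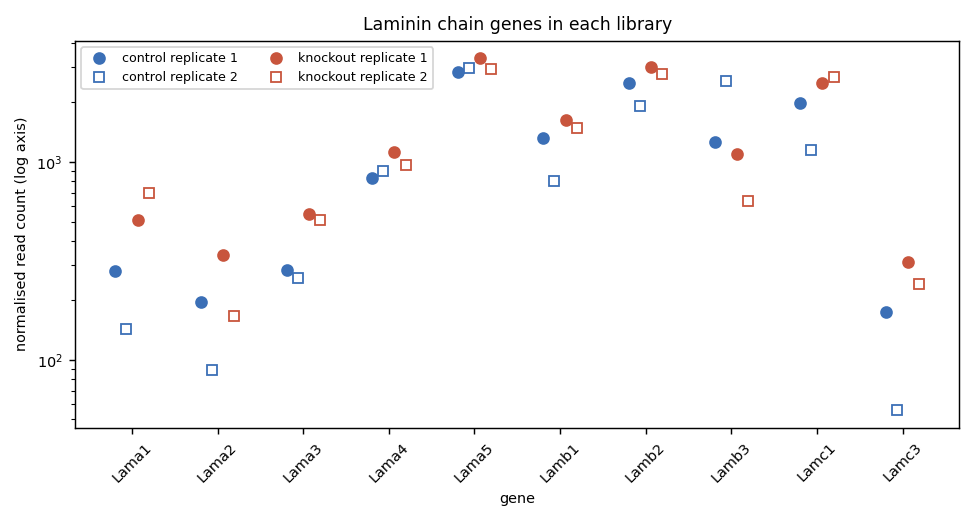
Normalised read counts of 10 laminin chain genes in each of the 4 libraries on a log axis. The knockout points of Lama1, Lama3, Lama4, Lamb1, Lamb2, Lamc1 and Lamc3 lie above both control points, those of Lamb3 lie below both, and Lama5 is at 2839.8 to 3338 throughout.

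Ratios within a library do not depend on how libraries were scaled, and they set the chains against each other. Per kilobase of annotated exon, Lama3 stood at 0.139 and 0.0621 of Lamb3 in the controls against 0.307 and 0.492 in the knockouts. This is 4.19-fold higher in the knockouts by geometric mean. Per base of annotated exon Lama3 thus remained below Lamb3 in every library, but by a smaller margin in the knockouts. The length used for Lama3 joins the exons of its long and short transcripts, so numbers of messages cannot be read from this ratio. Lama3 over Lama5 was 0.106 and 0.0914 in controls and 0.173 and 0.184 in knockouts. Lamb3 over Lamb1 was 1.43 and 4.80 in controls and 1.00 and 0.641 in knockouts. Lama1 was at 0.116 and 0.0560 of Lama5 in controls and 0.178 and 0.280 in knockouts. None of these ratios overlapped between groups, but an exact two-sided permutation test of 2 against 2 libraries cannot give a p below 0.33.

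**Figure D3:**
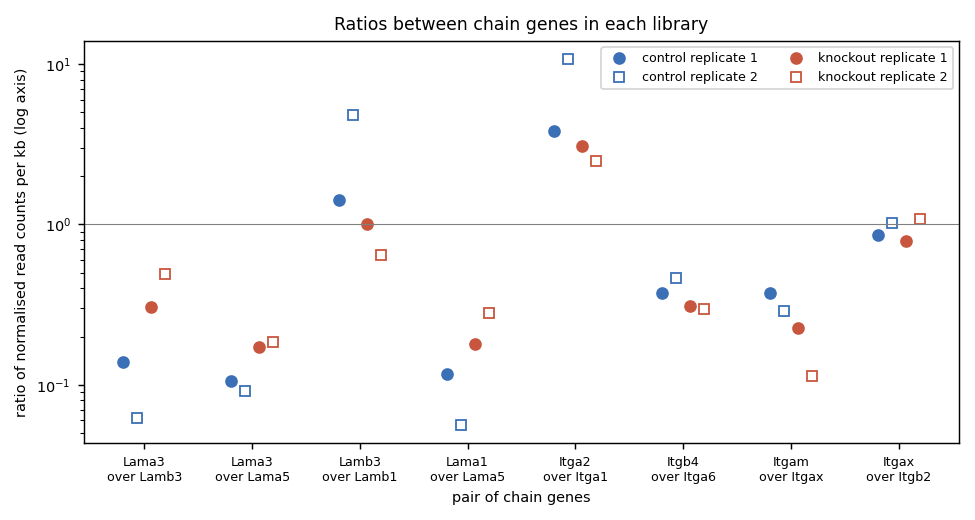
Ratios of normalised read counts per kilobase between pairs of chain genes in each library, on a log axis with a line at 1. Lama3 over Lamb3 is 0.0621 to 0.139 in controls and 0.307 to 0.492 in knockouts, while Itgax over Itgb2 overlaps between the groups.

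Markers of basal and myoepithelial cells, which rest on the basement membrane, are given beside the laminins. Of 11 markers, 9 had both knockouts above both controls, or 81.8% beside 25.5% of all genes. Krt14 had both below, or 9.09% beside 25.6%. None passed in limma over all genes, and 4 were higher and 1 lower at an unadjusted p under 0.05. The latter counts are 36.4% and 9.09% of the markers, beside 10.3% and 7.66% of all genes. Their summed level was 19931 and 9649 in the controls against 31611 and 36155 in the knockouts, and no marker was at 0. The contractile genes Acta2, Myh11, Mylk and Cnn1 had the highest means of the 11 in both groups. Control 2 was the lowest library in 9 of the 11 markers, or 81.8% beside 31.9% of all genes tested. The contractile gene Acta2 had 7753 and 3434 in controls and 13198 and 14937 in knockouts. The basal keratin Krt14 had 1313 and 1133 against 873 and 895, and Krt5 had 823 and 837 against 848 and 1087. Krt17 had 426 and 259 against 364 and 422, with overlapping groups. Summed fibroblast markers were 31221 and 16186 in controls and 43443 and 29520 in knockouts, and those of endothelium 1851 and 1001 against 2484 and 1886, with control 2 lowest in all 8 fibroblast and all 9 endothelial genes. The part of these cells in the laminin values was not tested.

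Of the laminin-binding integrin chains, which hold epithelial cells to the basement membrane, none passed in limma over all genes, and 1 of 4 did so at an unadjusted p under 0.05, or 25% beside 18.0% of all genes, which is near the background. That was Itgb4, the beta chain of the hemidesmosome, at 1813 and 1885 in controls and 1414 and 1357 in knockouts. Its replicates lay close together and the groups did not overlap, with means of 1849 ± 50.7 and 1385 ± 40.2 (SD, n = 2 each), for a log2 fold change of -0.42 with SE 0.10 (limma adjusted p = 0.102). Its only known alpha partner, Itga6, had 6243 and 5269 in controls and 5908 and 5918 in knockouts, at 0.04 (limma adjusted p = 0.876), and at -0.08 without control 2. Per kilobase, Itgb4 over Itga6 was 0.374 and 0.460 in controls and 0.308 and 0.295 in knockouts. Itga3, which pairs with Itgb1, had 1198 and 898 against 1195 and 1281, with overlapping groups at 0.25 (limma adjusted p = 0.403). Itga7, the laminin receptor of muscle, had 145 and 63.8 against 297 and 117.5, with control 1 above knockout 2, at 0.95 (limma adjusted p = 0.421), which was 0.29 without knockout 1, 0.37 without control 2 and 1.62 without knockout 2.

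Of the other hemidesmosome genes, 6 in all with the basal keratins, none passed in limma, and 1 was higher and 1 lower at an unadjusted p under 0.05, or 33.3% beside 18.0% of all genes. Col17a1, the hemidesmosomal collagen, had 321 and 301 in controls and 413 and 422 in knockouts, for a log2 fold change of 0.43 (limma adjusted p = 0.216). Dst, a plakin linker, had a log2 fold change of 0.23 (limma adjusted p = 0.318). Krt14 had -0.46 (limma adjusted p = 0.111). Itgb4 and Col17a1 thus had opposite signs while both form part of the same junction.

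The collagen-binding alpha chains all pair with Itgb1 and split by sign. Itga2, the collagen receptor of epithelium and platelets, had 398 and 599 in controls and 342 and 267 in knockouts, both knockouts below both controls, at -0.69 (SE 0.23, limma adjusted p = 0.181). Its neighbour Itga1, 20995 bases away on chromosome 13 and known from smooth muscle and stroma, had 270.2 and 145 against 289 and 279.7, at 0.52 (SE 0.29, limma adjusted p = 0.383). Per kilobase Itga2 over Itga1 was 3.84 and 10.7 in controls and 3.09 and 2.49 in knockouts. Itga1 depended on control 2, with 0.07 without it and 0.96 without control 1.

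Itga10, a cartilage collagen receptor, had 86.3 and 148 in controls and 70.6 and 56.3 in knockouts, at -0.83 (limma adjusted p = 0.265), and 33.5% of its annotated exon bases are shared with Gm42957. Itga11, a fibroblast collagen receptor, had 8.22 and 16.9 against 40.8 and 24.3, at 1.34 (limma adjusted p = 0.248). At these levels few reads stand behind Itga11, and its log2 fold change ran from 0.86 without control 1 to 1.82 without control 2.

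The 8 chains that bind the RGD motif of fibronectin, vitronectin and latent TGF-beta showed small differences. None passed in limma over all genes, and 1 was higher and 1 lower at an unadjusted p under 0.05, or 25% beside 18.0% of all genes, which is near the background. Itgav, the shared alpha chain of this group, had 2172 and 2032 in controls and 2489 and 2748 in knockouts, at 0.32 (SE 0.11, limma adjusted p = 0.183). Itgb3, a beta partner of Itgav known from osteoclasts and platelets, had 1366 and 1414 against 1149 and 1114, at -0.30 (SE 0.10, limma adjusted p = 0.201). The log2 fold change was positive for the alpha chain and negative for this beta chain, and Itgb3 over Itgav per kilobase was 1.15 and 1.27 in controls and 0.840 and 0.738 in knockouts.

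Of the other beta partners of Itgav, Itgb5 had 2464 and 2541 in controls and 3164 and 2749.6 in knockouts, at 0.24 (limma adjusted p = 0.298). Itgb6, an epithelial activator of TGF-beta, had 304 and 237 against 226 and 220.5, at -0.27 (limma adjusted p = 0.523). Itgb8, another activator of TGF-beta, had 864 and 698 against 853 and 933, with overlapping groups at 0.20 (limma adjusted p = 0.479). The fibronectin receptor chain Itga5 had 268 and 139 against 296 and 257, at 0.51 (limma adjusted p = 0.413). Itga5 had a log2 fold change of 0.04 without control 2 and 0.98 without control 1. Itga8, the receptor for nephronectin, had 662 and 772 against 546 and 624.5, both knockouts below both controls, at -0.29 (limma adjusted p = 0.321). Itga2b, the platelet chain, had 201 and 204 against 183 and 214, at -0.04 (limma adjusted p = 0.946), while 5 platelet markers, chiefly Pf4, summed to 259.9 and 117 in the controls against 246 and 152 in the knockouts. Of these, Tubb1 was at 0 in both controls and at 1.99 and 1.94 in the knockouts, all near the floor. The part of platelets in the Itga2b value was not tested.

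The leukocyte integrin chains had a median log2 fold change of 0.78 over 8 genes, beside 0.00425 for all genes tested, and 6 of them had both knockouts above both controls. None passed in limma over all genes, and all of these 6 were higher at an unadjusted p under 0.05, or 75.0% of 8 by either measure, beside 25.5% of all genes not overlapping and 10.3% higher at that p. Itgax, which encodes CD11c, a marker of dendritic cells and some macrophages, had 434 and 426 in controls and 664 and 707 in knockouts. With replicates this close, its log2 fold change was 0.67 (SE 0.13, limma adjusted p = 0.0691). Itgb2, the beta chain that Itgax, Itgal, Itgam and Itgad share, had 319.5 and 267 against 535 and 418, at 0.69 (SE 0.19, limma adjusted p = 0.122). Itgal, the lymphocyte receptor for ICAM proteins, had 142 and 102 against 206 and 237, at 0.87 (limma adjusted p = 0.139).

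The chains of lymphocyte homing and retention had larger fold changes from lower levels. Itgb7, the beta chain that joins Itga4 or Itgae, had 32.9 and 46.8 in controls and 151 and 76.7 in knockouts, at 1.43 (SE 0.41, limma adjusted p = 0.135). Itgae, which with Itgb7 binds E-cadherin and marks T cells within epithelium, had 33.9 and 27.9 against 64.7 and 80.6, at 1.20 (SE 0.36, limma adjusted p = 0.143). Itga4, a receptor for VCAM1 and MAdCAM1, had 62.7 and 52.8 against 108 and 104, at 0.87 (limma adjusted p = 0.187). In these 3 genes every knockout library was above every control library.

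The exception in sign was Itgam, the CD11b chain of macrophages and neutrophils, with 168 and 129.5 in controls and 156 and 84.5 in knockouts. Its groups overlapped, with a log2 fold change of -0.36 with SE 0.34 (limma adjusted p = 0.605) that was 0.08 without knockout 2. Itgam over Itgax per kilobase was 0.372 and 0.290 in controls and 0.225 and 0.114 in knockouts, while Itgax over Itgb2 overlapped, at 0.862 and 1.01 against 0.788 and 1.08. Of the exon bases of Itgam, 68.7% are shared with Gm49368. How shared reads were counted is not given, and its part in the Itgam value was not tested. Itgad, with 1.03 and 0 in controls and 0 and 2.91 in knockouts, was near the floor, and its fold is not interpretable. Without Itgad, an alternative chosen after seeing the data, the median log2 fold change is 0.87 over the other 7 leukocyte chains and 0.36 over the other 36 members.

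**Figure D4:**
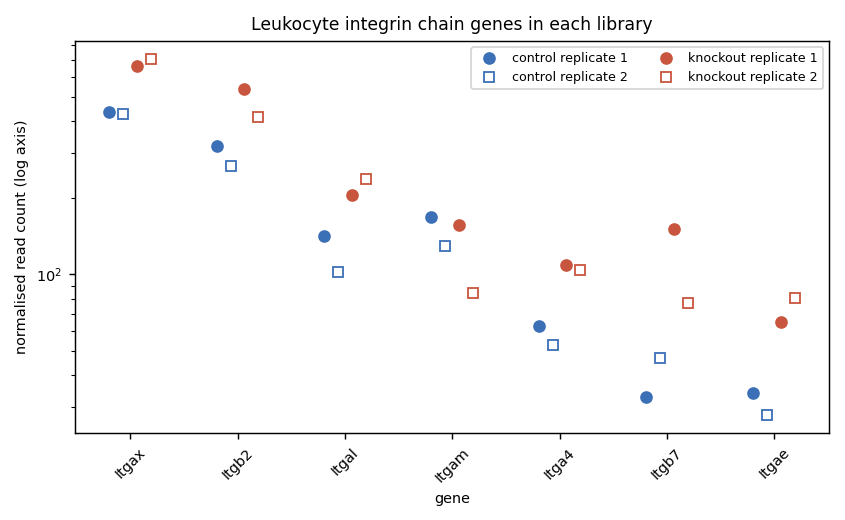
Normalised read counts of 7 leukocyte integrin chain genes in each library on a log axis (Itgad, near 0, is not drawn). For Itgax, Itgb2, Itgal, Itga4, Itgb7 and Itgae both knockout points lie above both control points, and for Itgam the groups overlap.

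General leukocyte markers are given beside these chains. Of 8 markers, 7 had both knockouts above both controls, or 87.5% beside 25.5% of all genes. Lcp1 had both below, or 12.5% beside 25.6%. None passed in limma, and 6 were higher at an unadjusted p under 0.05, or 75.0% beside 10.3% of all genes. The sum of the 8 markers was 7406 and 6869 in controls and 9462 and 8390.5 in knockouts, 1.25-fold higher by the means, and no marker was at 0. Lcp1 alone made up 34.9% to 55.0% of this sum. Without it, an alternative chosen after seeing the data, the other 7 summed to 4011 and 3093 in controls and 6157 and 5154 in knockouts, 1.59-fold higher. Ptprc, which encodes CD45, had 526 and 423 in controls and 881 and 730.4 in knockouts. As a percent of the sum with Lcp1, Itgax was 5.85% and 6.21% in controls and 7.01% and 8.43% in knockouts. Of the sum without Lcp1 it was 10.8% and 13.8% in controls and 10.8% and 13.7% in knockouts, so the groups overlapped, as they did for Itgb2, Itgal and Itgb7. Itga4 and Itgae lay above both controls and Itgam below both with either sum. Summed markers of T and NK cells were 268 and 295 in controls and 579 and 460.4 in knockouts. Of these 8 of 10 did not overlap, or 80.0% beside 51.2% of all genes. Those of dendritic cells were 223 and 141 against 384 and 271, with 5 of 7 not overlapping (71.4%). Macrophage markers summed to 11819 and 9807 against 16611 and 13876, with 7 of 8 not overlapping (87.5%). Neutrophil markers summed to 568 and 325 against 603 and 508, with 1 of 5 tested not overlapping (20.0%). Ly6g, below the filter on low values, was at 0 in both knockouts, and no difference can be read from it. B and plasma cell markers had 5 of 7 not overlapping (71.4%), Pou2af1 past the threshold, and Ms4a1 at 0 in control 2 and knockout 2. They summed to 2197 and 1377 in controls and 6788 and 4347 in knockouts. The part of these cells in the integrin values was not tested.

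Itga9, a receptor for tenascin, osteopontin and lymphatic ligands, had 198 and 145 in controls and 311 and 339.9 in knockouts. Both knockouts lay above both controls, with means of 172 ± 37.3 and 326 ± 20.2 (SD, n = 2 each), for a log2 fold change of 0.93 with SE 0.22 (limma adjusted p = 0.0969). Its beta partner Itgb1 (chromosome 8, 128685654 to 128733200), the chain shared by most alpha chains named here, had 11139 and 10022 in controls and 10174 and 10493 in knockouts. The groups overlapped, and the log2 fold change of Itgb1 was -0.03 (SE 0.10, limma adjusted p = 0.903), which is 0.02 with quantile normalisation.

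Set in order by mean level per kilobase, Itgb1 came first at 2562, above 98.7% of all genes tested, then Itgb5 at 768, Itga6 at 646, Lamb2 at 420.4 and Lama5 at 266. Lama5 and the next in order, Lamc1 at 251, had library values that overlapped. Itgb5, at 693 to 890.4 per kilobase, and Itga6, at 584 to 692, met at the edge of their ranges without overlapping. Lama3 was rank 22 at 37.1 and Lama1 rank 21 at 42.0, near the middle of all genes tested at percentiles of 49.5 and 51.1. At the bottom stood Itga4, Itga11 and Itgad, at 5.86, 4.40 and 0.218.

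**Figure D5:**
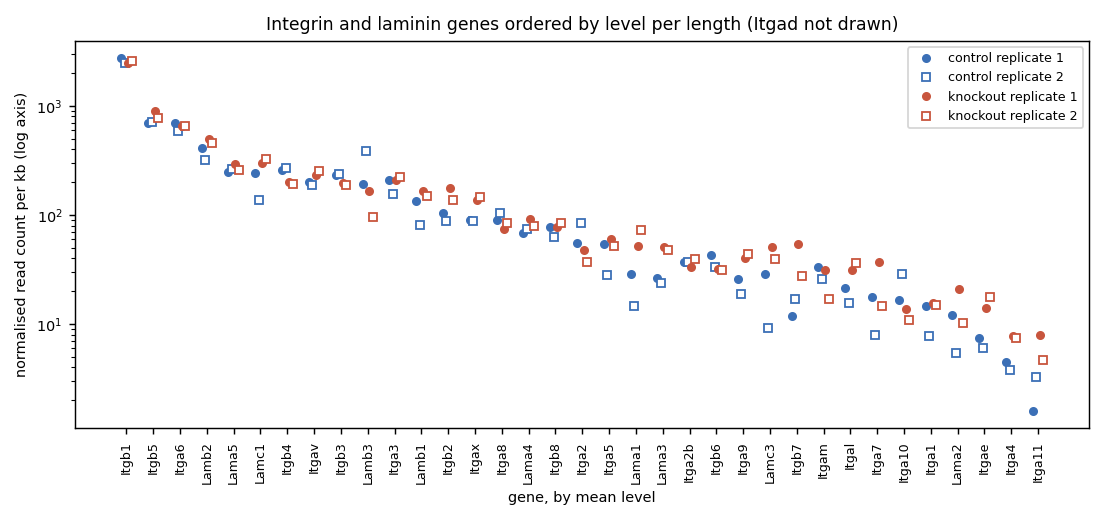
Normalised read counts per kilobase of annotated exon in each library, on a log axis, for 35 genes in order of their mean (Itgad, at 0 in 2 libraries, is not drawn). Itgb1 leads at a mean of 2562, and Itga11 stands last at 4.40.

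Other genes of the pathway came from 4 lists. Among 22 other basement membrane genes, 1 rose in limma over all genes, or 4.55% beside 0.414%. At an unadjusted p under 0.05, 9 were higher and 1 lower, or 40.9% and 4.55% beside 10.3% and 7.66% of all genes, and the median log2 fold change was 0.91. The gene that rose was Col4a3, a type IV collagen chain of the kidney filter and lung, from 20.5 and 11.0 in controls to 97.5 and 158 in knockouts (log2 fold change 2.96, SE 0.44, limma adjusted p = 0.0367). Col18a1, which yields endostatin, had 685 and 677 in controls and 1031 and 1093 in knockouts, at 0.64 (limma adjusted p = 0.0570). Frem2, of the Fraser complex, had 1.88 (limma adjusted p = 0.0717). In 16 of the 22 genes control 2 was the lowest library.

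Among the 25 tested ligands of integrins other than laminins, 4 fell in limma over all genes, or 16.0% beside 0.169%, and none rose. They were Spp1, Tnc, Thbs1 and Cyr61, all matrix proteins with integrin-binding sites. Thbs1, thrombospondin, fell from 6559 and 6527 in controls to 3588 and 3637 in knockouts, for a log2 fold change of -0.86 with SE 0.09 (limma adjusted p = 0.0154). Tnc, tenascin C, a ligand of Itga9, fell from 705 and 828 to 265 and 244, at -1.58 (limma adjusted p = 0.0110). Spp1, osteopontin, fell by 1.44 on the log2 scale (limma adjusted p = 0.00522) and Cyr61 by 1.85 (limma adjusted p = 0.0155). Over these 25 genes the median log2 fold change was 0.28. At an unadjusted p under 0.05, 6 were higher and 5 lower, or 24.0% and 20.0% beside 10.3% and 7.66% of all genes. With voom weights 1 of the genes of these lists passed in limma, and with no trend and robust settings 0 passed.

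Among 28 focal adhesion adaptors, which join integrin tails to actin, none passed in limma over all genes, and 10 were higher and 1 lower at an unadjusted p under 0.05, or 35.7% and 3.57% beside 10.3% and 7.66% of all genes. Their median log2 fold change was 0.14. Tgfb1i1, a paxillin relative of smooth muscle, had 466 and 291 in controls and 846 and 921 in knockouts, at 1.26 (limma adjusted p = 0.0581). Fermt3, the kindlin of blood cells, had 0.93 (limma adjusted p = 0.113), and Lims2 had 1.19 (limma adjusted p = 0.139). Tln1, the talin that switches integrins on, had 4040 and 3792 in controls and 4766 and 4845 in knockouts, at 0.30 (limma adjusted p = 0.178), and was named after its values were seen. Ilk, the integrin-linked kinase, was listed at low means of 8.03 ± 5.55 in controls and 7.86 ± 0.13 in knockouts (SD, n = 2 each). Of its annotated exon bases 89.7% are shared with other genes, and the smooth muscle gene Tagln, with 67.9% shared, was listed at 41.8 to 91.3. Of the members, 8 share over 5% of their exon bases with another gene, Itgam and Itga10 the most.

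Promoter windows of 300 bases, from 250 before to 50 after the annotated start, were found in RefSeq (GRCm38.p6) for 23 members, with 26 windows in all. They were searched for TGANTCA, the binding motif of AP-1 factors, which reads the same on both strands. It occurred in 3 of the 26 windows and in 7.81% of all 32851 windows. These were windows of Itgax, Itga9 and Itga3, shown because Itgax and Itga9 follow Lama3 when members are ordered by limma p. The motif is in capitals:
Itgax (chr7:128129469-128129525, plus strand): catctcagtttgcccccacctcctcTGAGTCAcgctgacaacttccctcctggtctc
Itga9 (chr9:118711705-118711741, plus strand): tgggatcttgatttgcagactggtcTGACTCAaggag
Itga3 (chr11:95069155-95069211, minus strand): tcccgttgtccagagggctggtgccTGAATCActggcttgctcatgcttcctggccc
The motif began at position -56 from the start for Itgax, 38 for Itga9 and 12 for Itga3, and for the latter 2 the start lies inside the gene as the files list it. The other window of Itga3, both windows of Lamb3 and the windows of Itga1 and Itga2 held no such letters. Lama3 and Lama1 were not among the 23 members with a window, so their promoters were not searched.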

How the data were processed

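RNA was sequenced on an Illumina NovaSeq instrument from 2 control and 2 knockout libraries, per the labels' protocols. Of tools, the submitters' processing notes list Bowtie 0.12.2, and of builds mm10, GRCm38 and hg38, without saying what each was used for. How reads were counted, with what strand setting, and how they were scaled is not given in the sources used here. What the authors deposited is a signal, a read count scaled per library, judged from its steps: every value in a library (100%) divided by its lowest value above 0 into a whole number, to within 1e-06 of that number. This is what whole counts divided by 1 factor per library give. Steps lay between 0.971 and 1.03 and 2 were too near 1 to tell recovered reads from rounded values under the rule applied, so no count-based test was run. The sums in steps were 15941909 to 16549344 per library. Gene lengths were deposited too and equalled the union of GENCODE M21 exons for all 37 members, whose coordinates also matched.

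Genes with a value of at least 1 in at least 2 libraries, 22455 in all, went into limma 3.58.1 (R 4.3.3) as log2(value + 1), fitted on genotype alone with its trend and robust options, 2 residual degrees of freedom per gene and a Benjamini-Hochberg threshold of 0.05 over all genes. A single read counts as at least 1 only in control 1, whose step is above 1. A fold change is the knockout mean less the control mean on this scale, which understates low genes. Intervals for counting error were not computed. Members and lists were chosen with earlier results of these data known. Of the members, 1 enters the counts and medians but is not reported by itself here. From the lists of other genes the text names those past the threshold and the 3 with the smallest p, and the cell type markers, Ilk and Tagln named with values were chosen after these were seen.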

Additional observations from a re-analysis of the deposited data

How the results depend on the processing

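The count of members called was fragile. Of the 13 alternatives, 9 can change a log2 fold change and 4 leave it as it is (no filter, a minimum mean of 10, no trend and robust settings, the replicate block). Under those 9, 32 of 37 members had no reversed sign. Of the members, 1 was called higher with a pseudocount of 5, no filter, quantile normalisation, equal sums or the replicate block. With a pseudocount of 0.1, a minimum mean of 10, voom weights or no trend and robust settings there were 0. Leaving out 1 library gave 0 to 12 members higher (0 without control 2, knockout 1 or knockout 2, with 16, 9 and 8 members at an unadjusted p under 0.05, or 43.2%, 24.3% and 22.2% beside 14.4%, 6.46% and 8.40% of genes) and 0 to 3 lower, the highest counts being those without control 1, when the lone control is assumed to vary like the knockouts. Those 12 were Lama1, Lama3, Lamb1, Lamb2, Lamc1, Lamc3, Itga1, Itga5, Itga9, Itgal, Itgax and Itgb2, and the 3 included Itga2 and Itgb4. Against 131 over all genes, 33 passed with a pseudocount of 0.1, 258 with 5, 332 with no filter, 69 with a minimum mean of 10, 257 with quantile normalisation, 5 with voom weights, 0 with no trend and robust settings (2983 at an unadjusted p under 0.05) and 0 to 2361 without 1 library. Of the other pathway genes 5 passed, but 1 with voom weights, 0 with no trend and robust settings, and 0 to 31 without 1 library (0 without either knockout, 8 without control 2). Reversals were Itgb1 at 0.0158 with quantile normalisation, 0.0043 with equal sums and 0.0044 with voom weights, and Itga2b at 0.00025 with equal sums and 0.00082 with voom weights. Without 1 library, log2 fold changes ran from -0.799 to 0.0797 for Itgam, -0.0354 to 1.46 for Itgad, near the floor and not interpretable, -0.0782 to 0.166 for Itga6, -0.108 to 0.0440 for Itgb1 and -0.147 to 0.0749 for Itga2b. The causes were not tested. The labels give both groups replicates 1 and 2, and deviations of equal numbers correlated at r = 0.118 over 22455 genes, but nothing says that a number marks a shared litter or day. With the replicate block 367 genes, 8 pathway genes and, of the members, Lama3 passed. With 2 libraries per group and low reads for Itgad and Itga11, small differences were not detectable at this depth.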
